A study of Homo sapiens with 4 samples.

Results

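The genes of the translation initiation factors and of the kinases that phosphorylate eIF2alpha were followed through RNA sequencing of human bladder cancer cells transfected with the circular RNA hsa_circ_0008399. They were chosen by name, as the 44 genes of the eIF1, eIF2, eIF2B, eIF3, eIF4, eIF5 and eIF6 factors and 3 eIF2alpha kinases, out of the 56303 genes of the deposited count table. All 44 were present in that table and all 44 passed the filter on low counts. The cell lines were T24T and EJ, both labelled as bladder cancer, and in each line 1 library came from cells given the circular RNA (circ) and 1 from cells given the vector (vector). The 4 groups were therefore T24T circ, T24T vector, EJ circ and EJ vector, with no other agent or genotype named in the labels. The labels do not say how long after transfection the cells were collected, or whether more than 1 culture entered a library. The series was set up to find genes whose expression depends on the circular RNA.

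Cell line registries list EJ as a derivative of T24, the line from which T24T was also derived, so the lines cannot be taken as independent donors. The circular RNA has no value of its own in a table with 1 value per gene, so its level could not be read in any library. Total counts were 18057768 in T24T circ, 16864247 in T24T vector, 14703455 in EJ circ and 15639289 in EJ vector. Of 6 epithelial markers, KRT7, KRT8 and KRT18 had 50 or more counts in each library. KRT19 had at most 4 counts, and CDH1 had 1 and 3 counts in T24T circ and vector and 0 in both EJ libraries. EPCAM had 111 and 117 counts in T24T circ and vector and 4 and 7 in EJ circ and vector. The endothelial markers PECAM1, VWF and CDH5 had at most 9 counts in a library. PTPRC and CD3E of the leukocyte markers, and DCN and LUM of the fibroblast and muscle markers, were at 0 in all 4 libraries. Other markers on those lists were not: CD68 had 1111 and 951 counts in T24T circ and vector and 216 and 160 in EJ circ and vector. MYH11 had 52 and 101 in T24T circ and vector and 59 and 87 in EJ circ and vector, and ACTA2 had 16 to 46. Their part in the results below was not tested.

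Translation of most mRNAs starts when the eIF4F complex (the cap-binding protein eIF4E, the scaffold eIF4G and the helicase eIF4A) recruits a small ribosomal subunit that carries eIF1, eIF1A, eIF3 and the ternary complex of eIF2, GTP and initiator tRNA. eIF5 stimulates GTP hydrolysis by eIF2 at the start codon, eIF5B joins the large subunit, and eIF2B reloads eIF2 with GTP. Stress kinases phosphorylate the alpha subunit of eIF2, which turns eIF2 into an inhibitor of eIF2B and lowers general initiation while some stress mRNAs are favoured.

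Of the 44 genes, 11 rose and 1 fell in circ relative to vector libraries. The rises belonged to EIF3A, EIF4EBP1, EIF3J, EIF2B2, EIF5B, EIF4E2, EIF2B4, EIF2S1, EIF4H, EIF3D and EIF4G1, and the fall to EIF3E. Over all 17689 genes tested, 7.13% rose and 5.56% fell by the same criterion, a Benjamini-Hochberg adjusted p below 0.05 from edgeR's quasi-likelihood test with a term for line. The median log2 ratio was 0.03 for the 44 genes and 0.00 for all genes tested. A ratio above 0 was held by 23 of the 44, and by 8896 of all 17689. By line, the median of the 44 was -0.03 in T24T, with 19 above 0, where 51% of all genes tested were. In EJ it was 0.09, with 26 above 0, where 49.9% of all genes tested were. Most of the changes were small: fitted log2 ratios of the rising genes lay between 0.23 and 0.70, and no gene of the 44 differed 2-fold in either line. DESeq2 called 2 of the 44 as rising, EIF3A and EIF3J, where 2.15% of the 8429 genes with an adjusted p rose, and 0 as falling, where 1.82% fell. At an unadjusted p below 0.05, in either direction, edgeR had 16 of the 44, where 25.8% of all genes tested were, and DESeq2 had 12, where 8.27% were.

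Levels in each library are given as CPM, read counts divided by the TMM-scaled library size. Each ± below is the standard error of the edgeR fit over both lines (n = 2), which draws its spread chiefly from information shared among genes, and each p is adjusted over all genes tested. With 1 library per group there is no replicate check within a line. Some genes below have both circ libraries above, or below, both vector libraries. The share of all genes in that order was not counted, so the order is given as a description alone. The p-values rest on how far the circ ratio differed between the 2 lines, 1 residual degree of freedom, and on spread shared among genes. They measure no spread between replicate libraries of a group, and the spread they use may be technical. Ratios within a line carry exact 95% binomial intervals, and those cover counting error only. In bulk RNA, fewer cells of a type and less RNA per cell cannot be told apart.

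**Figure D1:**
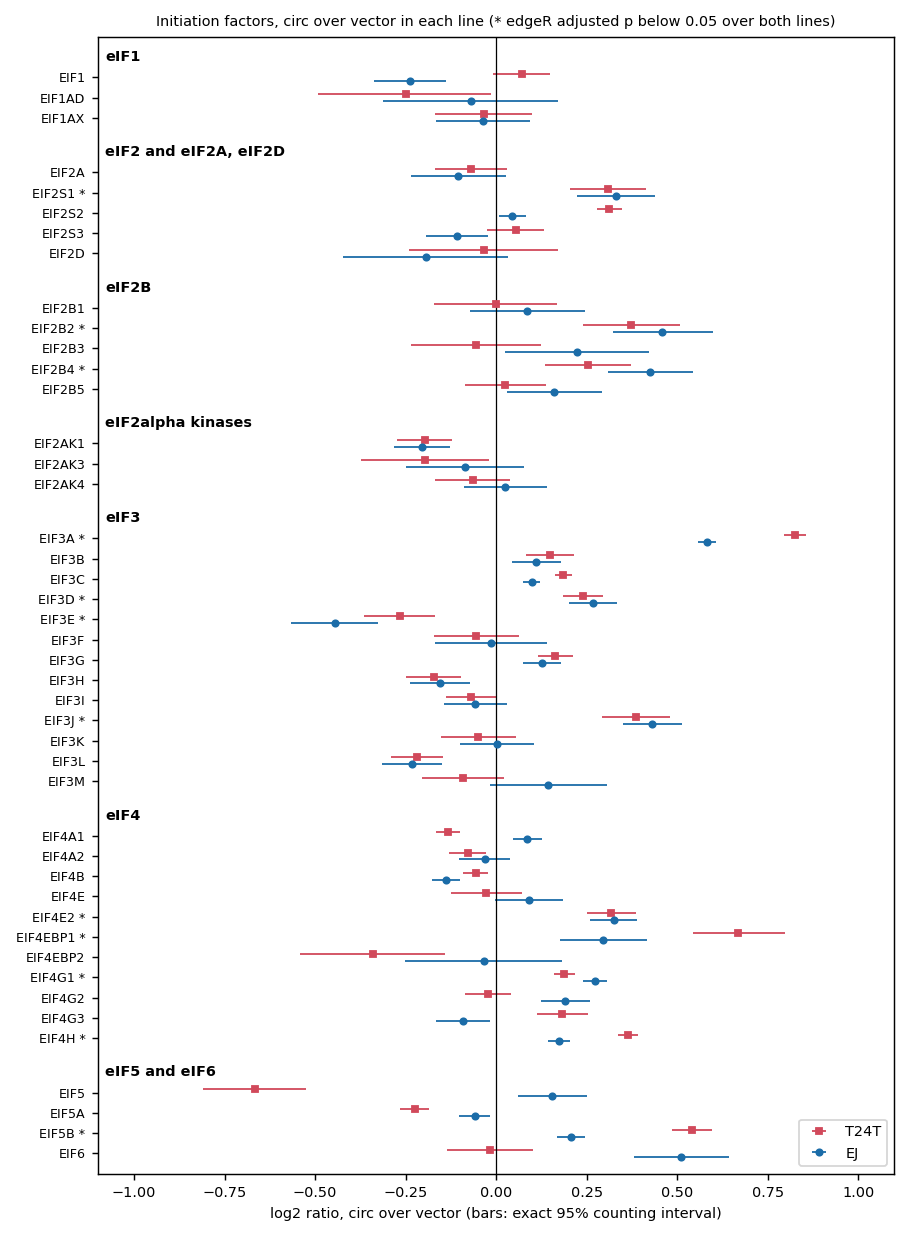
The log2 ratio of circ over vector for the 44 genes, grouped by factor, with T24T as red squares and EJ as blue circles. Bars are exact 95% counting intervals and an asterisk marks an edgeR adjusted p below 0.05 over both lines; EIF3A has the highest ratio in each line, 0.82 in T24T and 0.58 in EJ, and the lowest is that of EIF5 in T24T at -0.67.

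Several of these genes carry long stretches of A and G bases in their coding sequence, shown here because the circ over vector ratio moved with purine content across the transcriptome, as described further on. For each gene the 60-base coding window with the most purines inside 1 exon was read from the GENCODE release 29 transcripts on hg38. The windows are written 5′ to 3′ in the sense of the mRNA, and capitals mark unbroken runs of 8 or more purines.
EIF5B: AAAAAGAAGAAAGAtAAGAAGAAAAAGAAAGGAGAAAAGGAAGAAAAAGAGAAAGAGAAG
EIF4G1: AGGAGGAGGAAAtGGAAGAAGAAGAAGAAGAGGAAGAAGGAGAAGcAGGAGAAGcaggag
EIF2B4: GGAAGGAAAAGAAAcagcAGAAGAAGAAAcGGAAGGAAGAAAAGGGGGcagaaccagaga
EIF3J: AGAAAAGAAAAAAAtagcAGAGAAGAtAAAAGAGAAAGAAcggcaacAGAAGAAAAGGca
EIF3A: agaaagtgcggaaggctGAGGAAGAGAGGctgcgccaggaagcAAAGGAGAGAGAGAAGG
EIF2AK4: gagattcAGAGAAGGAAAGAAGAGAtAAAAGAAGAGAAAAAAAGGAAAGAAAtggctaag
EIF5: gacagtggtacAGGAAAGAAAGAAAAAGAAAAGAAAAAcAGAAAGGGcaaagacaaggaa
EIF2B2: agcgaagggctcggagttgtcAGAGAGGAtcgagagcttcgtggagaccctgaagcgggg
EIF3I: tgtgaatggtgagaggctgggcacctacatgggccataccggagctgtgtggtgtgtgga

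The windows are not printed in order of purine share: 5 genes that rose were put first, and not every purine-rich window is shown. Of the 12 genes of the 44 with a coding window of 80% purine or more, 7 rose. Of the other 32, 4 rose. EIF3C, EIF1AX and EIF4G3, not printed, had such a window and did not pass. Coding windows were not read for all genes. EIF2AK4 and EIF5 have windows as rich in purines as that of EIF3J and did not pass the test. EIF2B2 rose with a window that holds a single such run, and EIF3I, with none, did not pass. EIF4EBP1, whose window is not printed, had the lowest window share of the 44 genes, 58.3%, and rose. The EIF5B window lies at chr2:99363662-99363721 on the plus strand in exon 5 and is 98.3% purine. That of EIF4G1 lies at chr3:184321942-184322001 on the plus strand in exon 9 and is 95% purine. The EIF2B4 window (chr2:27369447-27369506, minus strand, exon 2) is 90% purine, and the EIF3J window (chr15:44551444-44551503, plus strand, exon 4) is 88.3% purine. For EIF3A the window lies at chr10:119058069-119058128 on the minus strand in exon 12, with 83.3% purine. The EIF2AK4 window (chr15:39953922-39953981, plus strand, exon 5) and the EIF5 window (chr14:103338335-103338394, plus strand, exon 7) are each 88.3% purine. EIF2B2 (chr14:75003005-75003064, plus strand, exon 1) reached 66.7% and EIF3I (chr1:32224054-32224113, plus strand, exon 3) reached 60%.

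eIF3 is the scaffold of initiation, a complex of 13 subunits that binds the small ribosomal subunit and bridges it to eIF4F. Of its 13 genes, 3 rose, EIF3A, EIF3J and EIF3D, and 1 fell, EIF3E. The median log2 ratio of the 13 was 0.02. EIF3A, the gene of the largest subunit (chr10:119033670-119080823, minus strand, hg38), had 1487 CPM in T24T circ against 839 in T24T vector. In EJ it had 2180.3 in circ against 1456 in vector. EIF3A had the smallest adjusted p of the 44 genes, with a log2 ratio of 0.70 ± 0.08 (edgeR adjusted p = 2.63e-07). Both lines showed the rise, by 0.82 (0.80 to 0.85) in T24T and 0.58 (0.56 to 0.61) in EJ, although the EJ vector library still had nearly as much EIF3A as the T24T circ library. In deposited RPKM, a level per length, EIF3A made up 21.5% of the summed eIF3 subunit mRNA in T24T circ against 14.2% in T24T vector, and 30.2% in EJ circ against 23.4% in EJ vector. The ratio of EIF3A to EIF3B in RPKM was 8.34 in T24T circ against 5.21 in T24T vector, and 11.4 in EJ circ against 8.22 in EJ vector.

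EIF3J, whose protein sits loosely on the complex and near the decoding site, had 126 CPM in T24T circ against 96.6 in T24T vector. In EJ it had 184 in circ against 137 in vector. The log2 ratio was 0.41 ± 0.08 (edgeR adjusted p = 0.00106). The ratios of the lines, 0.39 in T24T and 0.43 in EJ, lay within each other's counting intervals. EIF3D, a subunit that can bind the cap of some mRNAs, had 343 CPM in T24T circ against 290.4 in T24T vector, and 259 in EJ circ against 216 in EJ vector. Its log2 ratio was 0.25 ± 0.08 (edgeR adjusted p = 0.0375), close to the threshold.

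EIF3E, a subunit of the PCI/MPN core of the complex, was the one gene of the 44 that fell. It had 89.5 CPM in T24T circ against 108 in T24T vector, and 63.97 in EJ circ against 87.2 in EJ vector. The log2 ratio was -0.35 ± 0.09 (edgeR adjusted p = 0.00564), with -0.27 in T24T and -0.45 in EJ. Levels of EIF3E in the arms overlapped, because T24T circ was above EJ vector. EIF3L and EIF3H, which encode other eIF3 subunits, had log2 ratios of -0.23 ± 0.08 and -0.16 ± 0.08 without passing the test (edgeR adjusted p = 0.0712 and 0.21). EIF3B, EIF3C and EIF3G had 0.13, 0.14 and 0.15 and did not pass either. For each of the 3, both circ libraries were above both vector libraries, an order not counted over all genes. The remaining 4 subunit genes, EIF3F, EIF3I, EIF3K and EIF3M, lay between -0.06 and 0.02.

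**Figure D2:**
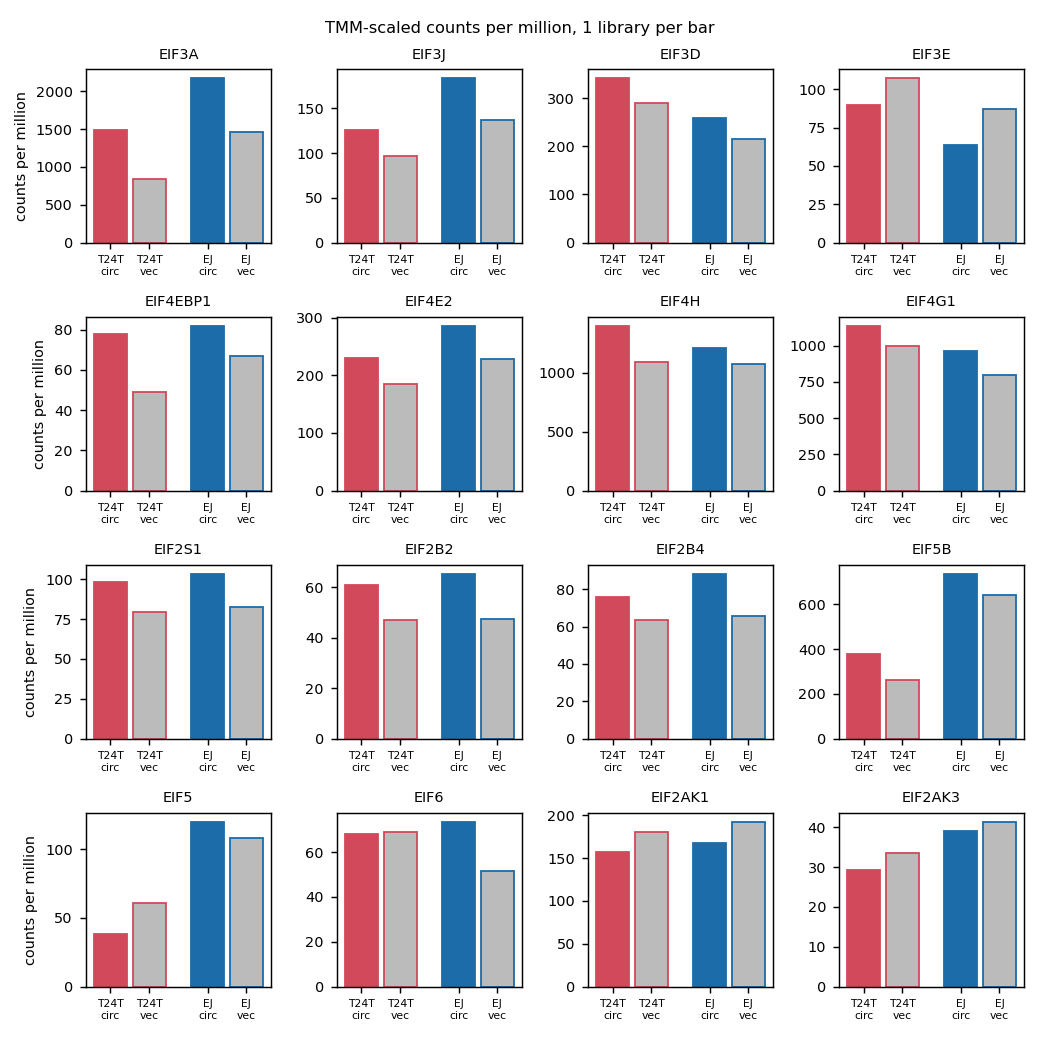
TMM-scaled CPM of 16 genes, 1 bar for each library, with circ coloured and vector grey in each line, T24T before EJ. EIF3A stands at 1487 and 839 in T24T circ and vector and at 2180.3 and 1456 in EJ circ and vector, and EIF5 is the panel where the circ bar is the lower one in T24T and the higher one in EJ.

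eIF2 carries the initiator tRNA, and its 3 subunits are encoded by EIF2S1 (alpha), EIF2S2 (beta) and EIF2S3 (gamma). Of the 5 genes of eIF2 and of EIF2A and EIF2D, which encode other factors able to bring tRNA to the ribosome, 1 rose. This was EIF2S1, the gene of the subunit the stress kinases phosphorylate. It had 98.6 CPM in T24T circ against 79.6 in T24T vector, and 104 in EJ circ against 82.5 in EJ vector. Both circ libraries were above both vector libraries, an order not counted over all genes. The log2 ratio was 0.32 ± 0.08 (edgeR adjusted p = 0.0104), and the lines gave 0.31 and 0.33 for T24T and EJ. EIF2S2 had 884 CPM in T24T circ against 712 in T24T vector, while EJ circ and vector had 774 and 750.3. Its log2 ratio of 0.18 ± 0.08 did not pass (edgeR adjusted p = 0.159), and nor did that of EIF2S3, at -0.03 ± 0.08. The mRNA levels of the subunits were far from equal. In RPKM, EIF2S2 stood at 323, 264, 297 and 289 in T24T circ, T24T vector, EJ circ and EJ vector, EIF2S3 at 45.1, 44.1, 40.5 and 43.9, and EIF2S1 at 16.9, 13.9, 18.7 and 14.9.

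eIF2B, the exchange factor for eIF2, has 5 subunits. EIF2B1, EIF2B2 and EIF2B4 encode the regulatory alpha, beta and delta subunits that sense phosphorylated eIF2, and EIF2B3 and EIF2B5 encode gamma and the catalytic epsilon. All 5 genes had fitted ratios above 0, with a median log2 ratio of 0.09, and 2 of them rose, both regulatory. Of all 17689 genes tested, 8896 had a fitted ratio above 0 and 7.13% rose. By line, the median of the 5 was 0.02 in T24T and 0.22 in EJ. In T24T, EIF2B1 and EIF2B3 were below 0, at -0.002 and -0.06. EIF2B2 had 61.0 CPM in T24T circ against 47.1 in T24T vector, and 65.4 in EJ circ against 47.5 in EJ vector. Its log2 ratio was 0.42 ± 0.09 (edgeR adjusted p = 0.00215). EIF2B4 had 75.8 in T24T circ against 63.6 in T24T vector, and 88.5 in EJ circ against 65.9 in EJ vector, for a log2 ratio of 0.34 ± 0.09 (edgeR adjusted p = 0.00907). For both genes the circ libraries did not overlap the vector libraries, which was not counted over all genes. EIF2B1, EIF2B3 and EIF2B5 had log2 ratios of 0.04, 0.08 and 0.09 and did not pass. The 5 subunit mRNAs were close in level, and in RPKM the highest was between 1.54 and 1.92 times the lowest in each library.

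The 3 eIF2alpha kinase genes among the 44 did not pass the test in either direction. edgeR, DESeq2 and limma-voom each called 0 of the 3 genes, and 1 of the 3 had an unadjusted edgeR p below 0.05. EIF2AK1, which encodes the heme-regulated kinase, had 157 CPM in T24T circ against 180.2 in T24T vector, and 167 in EJ circ against 193 in EJ vector. Both circ libraries were below both vector libraries, an order not counted over all genes. The log2 ratio was -0.20 ± 0.08 (edgeR adjusted p = 0.111), with near-equal ratios of -0.20 and -0.21 in T24T and EJ. EIF2AK3, the gene of the endoplasmic reticulum kinase PERK, had 29.3 in T24T circ against 33.6 in T24T vector, and 39.1 in EJ circ against 41.5 in EJ vector (log2 ratio -0.14 ± 0.10, edgeR adjusted p = 0.413). EIF2AK4, the gene of the amino acid sensor GCN2, had 86.9 in T24T circ against 90.9 in T24T vector, and 81.4 in EJ circ against 79.98 in EJ vector (log2 ratio -0.02 ± 0.09, edgeR adjusted p = 0.916). EIF2AK1 was the most abundant of the 3 per length, at 27.4 to 35.6 RPKM, against 5.23 to 7.81 for EIF2AK3 and EIF2AK4. The summed RPKM of these 3 was 39.7 in T24T circ against 45.6 in T24T vector, and 45.0 in EJ circ against 50.3 in EJ vector. EIF2AK2, the gene of the kinase PKR and not one of the 44, had 58.97 CPM in T24T circ against 46.4 in T24T vector, and 75.5 in EJ circ against 70.4 in EJ vector. Its log2 ratio of 0.22 ± 0.09 was on the other side of 0 and did not pass either (edgeR adjusted p = 0.117).

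Of the 11 genes around the cap-binding complex eIF4F, 4 rose, with a median log2 ratio of 0.05. EIF4EBP1, whose protein holds eIF4E away from eIF4G unless it is phosphorylated by mTOR, had 77.8 CPM in T24T circ against 48.9 in T24T vector. In EJ it had 82.1 in circ against 66.8 in vector. The log2 ratio was 0.48 ± 0.09 (edgeR adjusted p = 0.000698), the second smallest adjusted p of the 44 genes, and it was 0.67 in T24T against 0.30 in EJ. The ratio of EIF4EBP1 to EIF4E in RPKM was 10.3 in T24T circ against 6.37 in T24T vector, and 8.96 in EJ circ against 7.76 in EJ vector. EIF4E itself had a log2 ratio of 0.03 ± 0.08, and EIF4EBP2, a second binding protein of eIF4E, had -0.19 ± 0.12; neither passed. EIF4E2, a cap-binding relative of eIF4E that does not bind eIF4G and represses some mRNAs, had 231 CPM in T24T circ against 185 in T24T vector, and 286 in EJ circ against 229 in EJ vector. Its log2 ratio was 0.32 ± 0.08 (edgeR adjusted p = 0.0081), with 0.32 in each line.

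Among the scaffold and helicase genes, EIF4G1, the main scaffold of eIF4F, had 1138 CPM in T24T circ against 999 in T24T vector, and 966 in EJ circ against 799 in EJ vector. Its log2 ratio of 0.23 ± 0.08 was the smallest of the 11 rises and the nearest to the threshold (edgeR adjusted p = 0.0478). EIF4H, a cofactor of the helicase, had 1398 in T24T circ against 1086 in T24T vector, and 1208 in EJ circ against 1072 in EJ vector, for a log2 ratio of 0.27 ± 0.08 (edgeR adjusted p = 0.0219). It was also the most abundant of the 44 genes per length, at 425, 335, 386 and 344 RPKM in T24T circ, T24T vector, EJ circ and EJ vector. The helicase genes EIF4A1 and EIF4A2, the cofactor EIF4B, and the scaffold relatives EIF4G2 and EIF4G3 had log2 ratios between -0.10 and 0.08 and did not pass.

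Of the 4 genes of eIF5, eIF5A, eIF5B and eIF6, EIF5B rose. EIF5B, the GTPase that joins the ribosomal subunits, had 379.9 CPM in T24T circ against 261 in T24T vector, and 738 in EJ circ against 639.8 in EJ vector. Its log2 ratio was 0.37 ± 0.09 (edgeR adjusted p = 0.00333), with 0.54 in T24T and 0.21 in EJ, while both EJ libraries were above both T24T libraries. EIF5B did not pass with DESeq2 (adjusted p = 0.0705), nor with the transcriptome-wide trend on purine content removed, where its log2 ratio was 0.17 (edgeR adjusted p = 0.247). EIF5A, whose protein helps elongation through difficult stretches, had a log2 ratio of -0.14 ± 0.08 and did not pass (edgeR adjusted p = 0.272). EIF1 and EIF1AX, the genes of eIF1 and eIF1A, which act in start codon selection, and EIF1AD, named for its eIF1A-like domain, had log2 ratios of -0.08 ± 0.09, -0.04 ± 0.09 and -0.16 ± 0.12. None of these 3 was called by edgeR, DESeq2 or limma-voom, and 0 had an unadjusted edgeR p below 0.05.

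EIF5 and EIF6 behaved differently in the lines. EIF5, the gene of the GTPase-activating protein of eIF2 (chr14:103333544-103345025, plus strand, hg38), had 38.4 CPM in T24T circ against 61.0 in T24T vector, but 120.3 in EJ circ against 108 in EJ vector. The log2 ratios were -0.67 (-0.81 to -0.53) in T24T and 0.15 (0.06 to 0.25) in EJ. The difference, T24T minus EJ, was -0.82 with a counting interval of -0.99 to -0.65, while over all genes with 400 or more counts the lowest 10% of differences lay below -0.30 and the highest 10% above 0.31. EIF6, whose protein keeps the large subunit from joining too early, had 68.3 in T24T circ against 69.1 in T24T vector, and 73.7 in EJ circ against 51.7 in EJ vector. Its ratio was -0.02 (-0.14 to 0.10) in T24T and 0.51 (0.38 to 0.64) in EJ, a difference of -0.53 (-0.70 to -0.35). EIF4EBP1 followed with a difference of 0.37 (0.20 to 0.54). For 21 of the 44 genes the counting interval of the difference left out 0, with the higher ratio in T24T for 11 and in EJ for 10. All 44 had 250 or more counts in each library, and of the 7077 genes with that depth 34.3% had such an interval. For 3 of the 44, EIF5, EIF4G3 and EIF4A1, the ratios of the lines lay on opposite sides of 0 with both intervals leaving out 0, where 3.15% of the 7077 genes did so. These differences were not tested, since each rests on 4 single libraries and a model with both factors and their interaction has no residual degrees of freedom. Over both lines EIF5 (-0.23 ± 0.11, edgeR adjusted p = 0.199) and EIF6 (0.24 ± 0.10, edgeR adjusted p = 0.114) did not pass.

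The lines differed more than the arms. In T24T relative to EJ, 13 of the 44 genes were higher, where 21.9% of all genes were, and 10 were lower, where 19.5% of all genes were, by the edgeR test with transfection as a block. The largest gaps were in EIF5 and EIF5B, the genes of the last steps of initiation. EIF5 was lower in T24T by a log2 difference of -1.23 ± 0.11 (edgeR adjusted p = 1.51e-10), and EIF5B by -1.12 ± 0.09 (edgeR adjusted p = 1.41e-12). EIF3A was lower in T24T as well, by -0.67 ± 0.08 (edgeR adjusted p = 2.61e-08), followed by EIF3J at -0.52 ± 0.08. Higher in T24T were EIF3M at 0.85 ± 0.09 (edgeR adjusted p = 5.54e-09), EIF4A2 at 0.75 ± 0.08 (edgeR adjusted p = 5.2e-09) and EIF2A at 0.68 ± 0.09 (edgeR adjusted p = 9.83e-08). EIF4A2, the second helicase gene of eIF4F, had 345 and 365 CPM in T24T circ and vector against 209 and 214 in EJ circ and vector. EIF3M, an eIF3 subunit gene, had 71.3 and 76.0 in T24T circ and vector against 42.9 and 38.8 in EJ circ and vector. EIF2A had 95.5 and 100.2 in T24T circ and vector against 58.8 and 63.2 in EJ circ and vector. Of the 13 eIF3 genes, 6 were higher in T24T and 3 were lower, EIF3A, EIF3J and EIF3K.

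**Figure D3:**
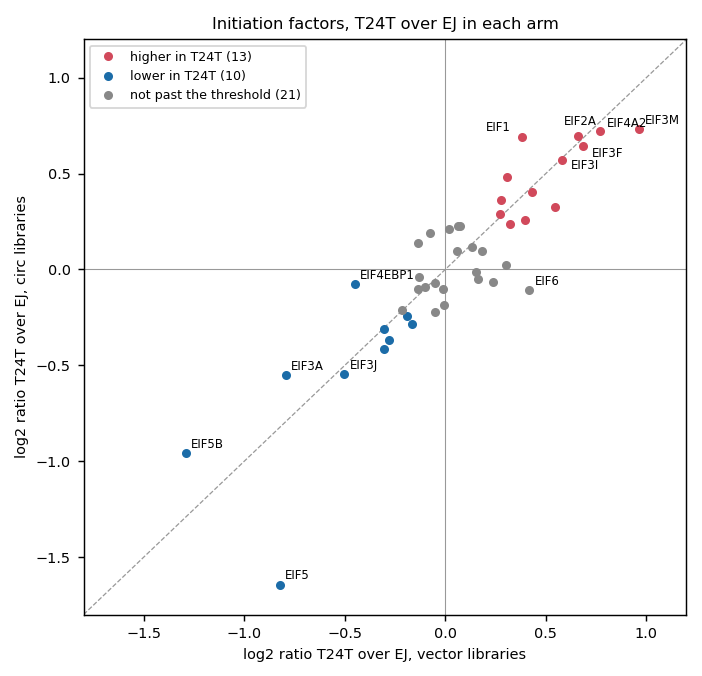
Log2 ratio of T24T over EJ for the 44 genes in the vector libraries (horizontal) and in the circ libraries (vertical), coloured by the edgeR call on the line difference. Points on the dashed diagonal have the same line difference in both arms; EIF5, at -0.82 in vector and -1.64 in circ libraries, lies farthest from it.

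Levels per length spanned a wide range within eIF3 and a narrow one within eIF2B, as given above. In the RPKM values, EIF3A, EIF3C and EIF3G stood above 100 in each library, while EIF3F stood at 7.08, 7.48, 4.76 and 4.83 and EIF3M at 9.30, 10.1, 5.89 and 5.35 in T24T circ, T24T vector, EJ circ and EJ vector. The highest eIF3 subunit was 34.3 times the lowest in T24T circ and 29 times in T24T vector, and 65.7 times in EJ circ and 51.0 times in EJ vector. RPKM was computed with the summed length of all annotated exons of a gene, so genes with long rare exons read low. The 44 genes together took 1.32% of all counts in T24T circ against 1.195% in T24T vector, and 1.39% in EJ circ against 1.25% in EJ vector.

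**Figure D4:**
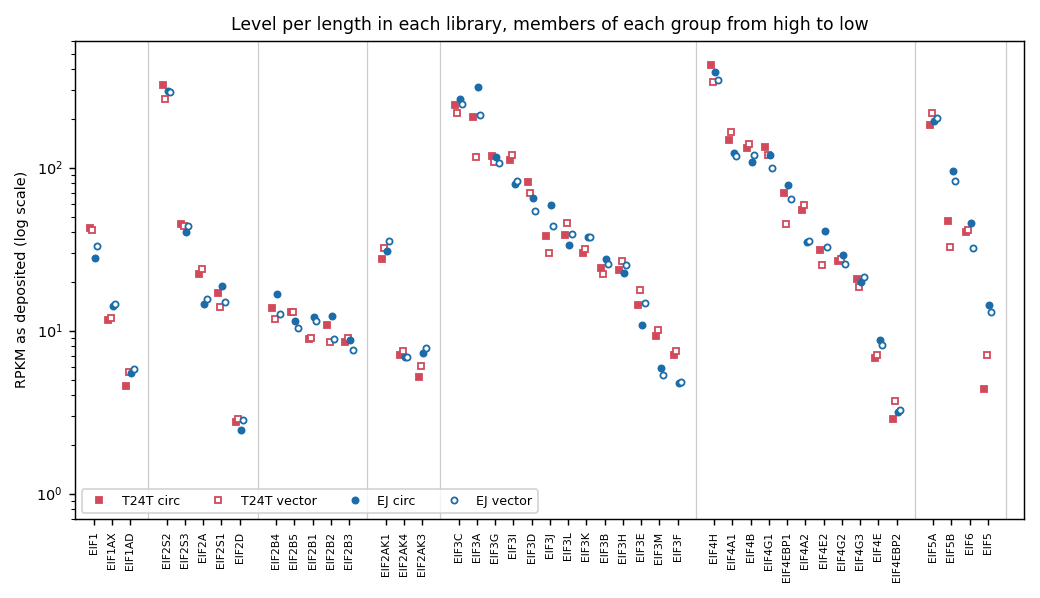
Deposited RPKM on a log scale for each of the 44 genes in each library, ordered from high to low inside each group of factors, with filled symbols for circ and open symbols for vector. EIF4H is the most abundant of the 44 in each library, and EIF2D and EIF4EBP2 are the least abundant, with EIF4EBP2 between 2.86 and 3.69 RPKM.

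Some of these genes share exons with others. EIF4A1 shares 29.8% of its exon bases with the readthrough gene SENP3-EIF4A1 and 41.1% with the clone gene RP11-186B7.4. These had 14709 and 15213 counts in T24T circ, beside 14168 for EIF4A1. EIF3C has a near-identical copy, EIF3CL, and how reads were divided between them is not known. EIF3L shares 41.1% of its exon bases with the clone gene RP5-1014D13.2. EIF2AK1 overlaps AIMP2 on the opposite strand over 9.59% of its exon bases, EIF4E2 overlaps TIGD1 over 7.54% and EIF5B overlaps REV1 over 10.8%. These values are uncertain to the extent that reads were shared.

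The ratio of circ over vector moved with the purine content of transcripts. Over the 10202 genes with 400 or more counts and a transcript sequence, Spearman's rho between the share of A and G bases and the circ over vector log2 ratio was 0.29, with 0.28 in T24T and 0.23 in EJ. Purine share also went with the T24T over EJ log2 ratio of the vector libraries, at a rho of -0.17. Both vector libraries also enter the circ over vector ratios, so this rho is not separate from those above. All these values describe genes of the same 4 libraries, which are not independent replicates. In the 10% of genes with the least purine the median log2 ratio was -0.12 in T24T and -0.10 in EJ, and in the 10% with the most it was 0.17 in T24T and 0.10 in EJ. Among the 44 genes rho was 0.38. EIF5B, at 59.0% purine, and EIF3A, at 56.3%, were the richest of the 44, whose median was 52.0%, while EIF3L was at 47.1%. A 60-base window of 80% purine or more lay somewhere in the transcript of 30.7% of the 10202 genes and of 31.8% of the 44. Of the 14 genes among the 44 with such a window 7 rose (EIF5B, EIF4G1, EIF2B4, EIF3J, EIF3A, EIF4E2 and EIF3D), and of the other 30, 4 rose. EIF3E, which fell, was also among the 14. Over all 10202 genes, 16.3% of those with such a window rose and 6.8% of those without it.

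Removing a smooth trend on purine content from each library, a choice made after seeing the data, left 8 of the 44 genes as rising, where 4.27% of the 14620 genes with a value rose, and 1 as falling, where 3.63% fell. EIF3A kept a log2 ratio of 0.56 (edgeR adjusted p = 0.00277) and EIF3J one of 0.31 (edgeR adjusted p = 0.0336). EIF5B, as given above, EIF3D at 0.20 (edgeR adjusted p = 0.138) and EIF4G1 at 0.17 (edgeR adjusted p = 0.186) no longer passed. EIF3E moved to -0.42 and still passed (edgeR adjusted p = 0.0148). The source of the trend was not tested.

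**Figure D5:**
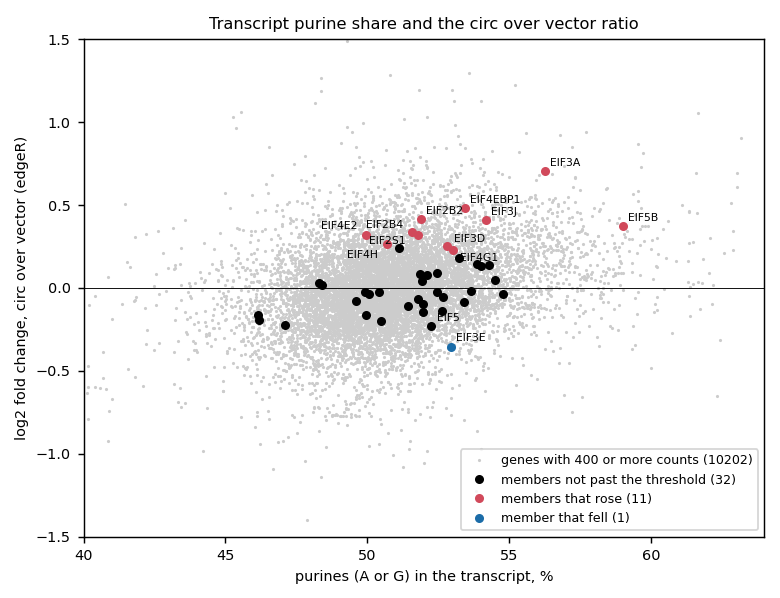
Share of purines in the transcript (horizontal, percent) against the fitted circ over vector log2 ratio (vertical), with the 10202 genes of 400 or more counts in grey and the 44 genes in colour. The genes that rose are red and EIF3E, which fell, is blue; EIF5B and EIF3A lie at the purine-rich end, and 17 genes lie outside the axes.

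Around the 44 genes, the regulators that set the phosphorylation of eIF2alpha were mixed: of 10 genes outside the 44, 3 rose (PPP1R15A, DNAJC3 and GCN1) and 2 fell (PPP1CA and PPP1CC), with a median log2 ratio of 0.09. Over all genes tested, 7.13% rose and 5.56% fell by the same edgeR test. DESeq2 called only PPP1R15A of this list as rising and only PPP1CA as falling. The gene of the phosphatase subunit that removes the phosphate under stress, PPP1R15A, had 624 CPM in T24T circ against 265 in T24T vector, and 464 in EJ circ against 180.3 in EJ vector. DNAJC3, which encodes an inhibitor of the kinases, rose by 0.51 ± 0.12 (edgeR adjusted p = 0.00487), and GCN1, the activator of GCN2, by 0.29 ± 0.08 (edgeR adjusted p = 0.0181). The catalytic phosphatase genes PPP1CA and PPP1CC fell, with log2 ratios of -0.42 ± 0.08 and -0.45 ± 0.10 (edgeR adjusted p = 0.000859 and 0.0028). Among 9 genes known to be induced when eIF2alpha is phosphorylated, 4 rose (ATF3, DDIT3, ASNS and ATF5) and 1 fell (CHAC1), with a median log2 ratio of 0.35 in the fit over both lines, 0.59 in T24T and 0.01 in EJ. Of these genes DESeq2 called only ATF3 and DDIT3, both as rising. The lines did not share this pattern in all genes: ATF4, the central transcription factor of the response, had 375 CPM in T24T circ against 296 in T24T vector, but 388 in EJ circ against 480.3 in EJ vector. ASNS, the asparagine synthetase gene, had 146 in T24T circ against 48.6 in T24T vector, and 95.6 in EJ circ against 87.4 in EJ vector. CHAC1 rested on few reads, with 6 and 7 counts in T24T circ and vector and 18 and 68 in EJ circ and vector.

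Of 14 tested regulators of eIF4F outside the 44, 1 rose and 2 fell, with a median log2 ratio of -0.05. RPTOR, a subunit of the mTOR complex that phosphorylates the eIF4E-binding proteins, rose by 0.51 ± 0.10 (edgeR adjusted p = 0.000443). MKNK2, a kinase of eIF4E, and PDCD4, an inhibitor of eIF4A, fell with log2 ratios of -0.40 ± 0.11 and -0.29 ± 0.09 (edgeR adjusted p = 0.0134 and 0.0253). Among 11 tested other initiation factors and paralogs, 1 rose, EIF4A3, the helicase of the exon junction complex. It had 100.1 CPM in T24T circ against 84.0 in T24T vector, and 115 in EJ circ against 92.5 in EJ vector, for a log2 ratio of 0.29 ± 0.08 (edgeR adjusted p = 0.0213). Of 10 tested elongation and release factors, 1 rose, the release factor gene ETF1 at 0.30 ± 0.08 (edgeR adjusted p = 0.0157). The median of that list was -0.06. In each of these lists DESeq2 called 0 genes in either direction. Over all genes, edgeR had 7.13% rising and 5.56% falling, and DESeq2 2.15% and 1.82% of those with an adjusted p.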

How the data were processed

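RNA was extracted with TRIzol and sequenced on Illumina libraries, per the labels' protocols. Trimmomatic, HISAT2 and hg38 are named in the submitters' processing notes; the counting tool, annotation and use of strand are not given in the sources used here. The authors deposited raw read counts for 56303 genes and RPKM values for 29817 genes. Deposited RPKM equalled count over length and library total in 100% of values (relative tolerance 1e-06). All 4 sample columns were matched by the samples' descriptions, which write T24 for the line titled T24T, and 0 sample columns were left unused.

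Genes with 10 or more counts in a library and 20 or more in all were kept, 17689 in total. Counts were scaled by TMM and tested in edgeR 4.0.16 (R 4.3.3) by the quasi-likelihood test with line and transfection as terms, Benjamini-Hochberg adjustment and a threshold of 0.05. The fit has 1 residual degree of freedom and 30.5 prior degrees of freedom. It was run on simulated counts with 200 changed genes, with the same spread for every gene and the same change in both lines. That run cannot speak for genes whose ratio differs between the lines. Ratios within a line used a prior count of 2. DESeq2 1.42.0, limma 3.58.1 (voom, log2(RPKM + 1) and log2(RPKM + 0.1)), RLE factors, library size alone, other filters, no block, single lines, and purine-trend removal by lowess (span 0.3; 82.7% of tested genes had a value) were alternatives. Transcripts came from GENCODE release 29.

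The genes and lists were chosen with earlier results of these data known. Values in every library are given for genes past either test's rule: all past the circ test, the 3 smallest adjusted p of the line test per direction, the 3 largest differences between lines, EIF2S1, the kinases and EIF4A3; of other lists, up to 4 genes per direction by adjusted p. Others were named as examples after their values were seen.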

Additional observations from a re-analysis of the deposited data

Results flagged for a closer look

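For 3 of the 44 genes the circ over vector ratio went one way in T24T and the other way in EJ, with both counting intervals leaving out 0. Of the 7077 genes with 250 or more counts in each library, 3.15% did so. The difference, T24T minus EJ on the log2 scale, was -0.82 for EIF5, with ratios of -0.67 in T24T and 0.15 in EJ. It was 0.27 for EIF4G3, the third eIF4G gene, with 0.18 in T24T and -0.09 in EJ. It was -0.22 for EIF4A1, the main helicase gene of eIF4F, with -0.13 in T24T and 0.09 in EJ. These differences were not tested, because each group holds 1 library, and the intervals cover counting error only.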

How the results depend on the processing

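The number of genes of the 44 that rose, 11, was 2 with DESeq2 and 0 with limma on log2(RPKM + 1), on log2(RPKM + 0.1) and without the block for line. At an unadjusted p below 0.05, 13 were higher in circ in edgeR, 11 with DESeq2, 11 with limma on either RPKM scale and 1 without the block. In either direction, 25.8% of all genes tested had such a p in edgeR and 8.27% in DESeq2. The shares of all genes by direction, and those for limma and without the block, were not counted. The number that fell, 1, was 2 with RLE size factors, and 0 with DESeq2, with limma on either RPKM scale and without the block. In T24T relative to EJ, 13 genes were higher, against 7 without the block. Likewise 10 were lower, against 5 with DESeq2 and 2 without the block. Over all genes, 1262 rose and 984 fell, against 181 and 153 with DESeq2, 624 and 530 with the purine trend removed, and 0 in each direction on both RPKM scales and without the block. In T24T 3870 genes were higher and 3445 lower, against 1776 and 1441 with DESeq2 and 1944 and 1248 without the block, and 2492 were higher with limma on log2(RPKM + 1). The cause of these shifts was not tested, except that leaving out the block puts the blocked difference, between lines for the circ test and between arms for the line test, into the spread. Other alternatives changed these counts by less than 1.5 times, and 8 rises were left with 50 counts in each line. Every fitted ratio of the 12 genes past the test kept its sign over 10 alternatives, between 0.56 and 0.70 for EIF3A and between -0.42 and -0.34 for EIF3E. EIF4G1 passed in 2 of the 10, EIF3D in 3, and EIF3A and EIF3J in 7. Circ and vector were paired within each line by the block for line, and the labels give no replicate numbers for any other pairing. The depth of 14703455 to 18057768 counts left 269 or more counts for each of the 44 genes in each library.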
